A study of Mus musculus with 12 samples.

Results

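The Purkinje cell signature genes are 7 genes that mark Purkinje cells, the output neurons of the cerebellar cortex: Pcp2, Pcp4, Ppp1r17, Car8, Skor2, Foxp2 and Arhgef33. They were taken by name, and all 7 had a row in the count tables, out of 54446 gene identifiers. Gene expression was measured by sequencing of poly(A) RNA in Mus musculus, in cerebellum of Syt14-/- mice, labelled SYT14 knockout (KO), and of Syt14+/+ mice, labelled WT, and in hippocampus of the same animals, with 3 animals per genotype and 12 libraries in all. The sources used here give neither the age, sex and strain of the mice nor how and where Syt14 was altered. The series asks what Syt14, a protein related to the synaptic vesicle calcium sensors, does in mood disorder and motor coordination.

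Purkinje cells receive the signals of granule cells and climbing fibres and send the inhibitory output of the cerebellar cortex to the deep nuclei, and damage to them causes ataxia. The signature covers different parts of the cell. Pcp2 binds G protein alpha subunits, Pcp4 binds calmodulin, and Ppp1r17, also called G-substrate, inhibits protein phosphatases once it is phosphorylated by cGMP-dependent kinase. Car8 is a carbonic anhydrase-like protein without enzyme activity that binds the inositol trisphosphate receptor Itpr1. Skor2 is a transcriptional co-repressor needed for Purkinje cell differentiation, Foxp2 is a forkhead transcription factor, and Arhgef33 is by its sequence a guanine nucleotide exchange factor for small GTPases.

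Positions are those of GENCODE M21 on GRCm38. Pcp2 (ENSMUSG00000004630) lies at chr8:3623371-3625545 and Car8 (ENSMUSG00000041261) at chr4:8143362-8239041, both on the minus strand. On the plus strand, Pcp4 (ENSMUSG00000090223) lies at chr16:96467606-96525793 and Arhgef33 (ENSMUSG00000054901) at chr17:80307407-80400081. Ppp1r17 (ENSMUSG00000002930, chr6:56017497-56032689) and Foxp2 (ENSMUSG00000029563, chr6:14901349-15441977) share a chromosome and the plus strand.

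RefSeq promoter windows in GRCm38.p6, from 250 bases before to 50 after the annotated start, were on hand for 3 of the 7 members. All 3, those of Pcp2, Pcp4 and Arhgef33, are shown. Capitals mark AGGTCA, on either strand (TGACCT on the other), the core that nuclear receptors such as the Purkinje cell factor Rora bind.
Pcp2: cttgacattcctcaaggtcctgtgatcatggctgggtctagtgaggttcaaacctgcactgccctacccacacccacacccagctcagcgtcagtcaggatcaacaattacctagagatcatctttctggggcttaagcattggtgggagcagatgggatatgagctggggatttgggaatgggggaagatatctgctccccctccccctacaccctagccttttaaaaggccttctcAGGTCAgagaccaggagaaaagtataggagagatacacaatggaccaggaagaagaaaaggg
Pcp4: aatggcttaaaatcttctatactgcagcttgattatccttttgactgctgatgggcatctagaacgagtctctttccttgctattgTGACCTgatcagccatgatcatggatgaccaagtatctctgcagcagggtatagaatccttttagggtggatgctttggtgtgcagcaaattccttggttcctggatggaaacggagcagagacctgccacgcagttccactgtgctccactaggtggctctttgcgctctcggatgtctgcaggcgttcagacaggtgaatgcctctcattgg
Arhgef33: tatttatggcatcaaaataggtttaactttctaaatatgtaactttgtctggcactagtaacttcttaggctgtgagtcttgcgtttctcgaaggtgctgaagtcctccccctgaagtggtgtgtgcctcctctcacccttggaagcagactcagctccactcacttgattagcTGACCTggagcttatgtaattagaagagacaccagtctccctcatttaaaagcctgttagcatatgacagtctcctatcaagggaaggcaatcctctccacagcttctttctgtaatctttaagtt
The windows lie at chr8:3625498-3625797 on the minus strand for Pcp2, at chr16:96467356-96467655 on the plus strand for Pcp4 and at chr17:80307157-80307456 on the plus strand for Arhgef33. Each held 1 match to AGGTCA, and 16.3% of all 32851 promoter windows of this length held at least 1. Of the 18 other Purkinje genes with a window, 3 held AGGTCA. A match is a description of letters and not of a bound site.

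The libraries held 24355572 to 34971359 counts, so 3 counts corresponded to 0.0858 to 0.123 CPM, the count scaled to the library total. Levels below are CPM scaled by TMM, a correction for library composition, unless another scale is named. Syt14 stood at 30.6, 30.7 and 30.3 CPM in KO cerebellum, against 33.8, 33.3 and 38.2 CPM in WT cerebellum, so its transcript was still read in the libraries labelled knockout. In hippocampus it stood at 29.2, 28.0004 and 30.6 CPM in KO, against 38.5, 38.9 and 38.1 CPM in WT, and in neither tissue did the groups overlap. Its level in KO was 86.9% of WT in cerebellum (interval 78.9 to 95.8%, log2 -0.20, edgeR adjusted p = 0.644) and 76.1% of WT in hippocampus (interval 69.3 to 83.6%, log2 -0.39, edgeR adjusted p = 0.686), where its unadjusted p of 3.9e-05 was the smallest of all genes. Neither difference passed the test after adjustment, and whole-gene counts do not check a knockout whose altered part is unknown. The cerebellum libraries differed in neighbouring tissue. The summed level of 8 choroid plexus markers in plain CPM was 27.8 to 1920 in KO cerebellum, against 1107 to 2876 in WT cerebellum. All 8 had a lower mean in KO, and Ttr, the carrier of thyroid hormone made there, was at 0.622 CPM in KO replicate 3. The summed level of 13 brainstem markers was 60.8 to 113 in KO cerebellum, against 64.5 to 73.5 in WT cerebellum, with 11 of the 13 higher on average in KO. None of the markers of either list was at 0 in every cerebellum library.

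All 7 signature genes were higher in cerebellum than in hippocampus, in KO animals and in WT animals alike, and for every member all cerebellum libraries of a genotype lay above all its hippocampus libraries. By the size of the difference, Skor2, Ppp1r17, Pcp2, Car8 and Arhgef33 were over 100-fold higher in cerebellum, and Pcp4 and Foxp2 about 5-fold. In hippocampus, per kilobase, Pcp4 (6.28 RPKM) and Car8 (1.08 RPKM) were the highest members, above Arhgef33 (0.384 RPKM), Pcp2 (0.211 RPKM), Foxp2 (0.130 RPKM) and Ppp1r17 (0.106 RPKM). Per kilobase of annotated exon, the scale on which genes can be compared, Car8 led in cerebellum at 417 ± 36.6 RPKM (mean ± SD over 6 libraries of both genotypes), rank 22 among all genes. Ppp1r17 followed at 112 ± 7.03 RPKM and Pcp2 at 97.5 ± 7.83 RPKM. Arhgef33 stood at 40.8 ± 4.61 RPKM, Pcp4 at 31.8 ± 1.79 RPKM, Skor2 at 4.85 ± 0.578 RPKM and Foxp2 at 0.691 ± 0.171 RPKM. The library ranges of Ppp1r17 and Pcp2 overlapped, as did those of Arhgef33 and Pcp4. Within each cerebellum library, however, Ppp1r17 stood above Pcp2 and Arhgef33 above Pcp4 on this scale. The order depends on the annotated exon length, which for Foxp2 is 16.3 kilobases. Exon bases that Pcp2 and Pcp4 share with other genes, given below, leave the place of these members in the order uncertain.

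**Figure D1:**
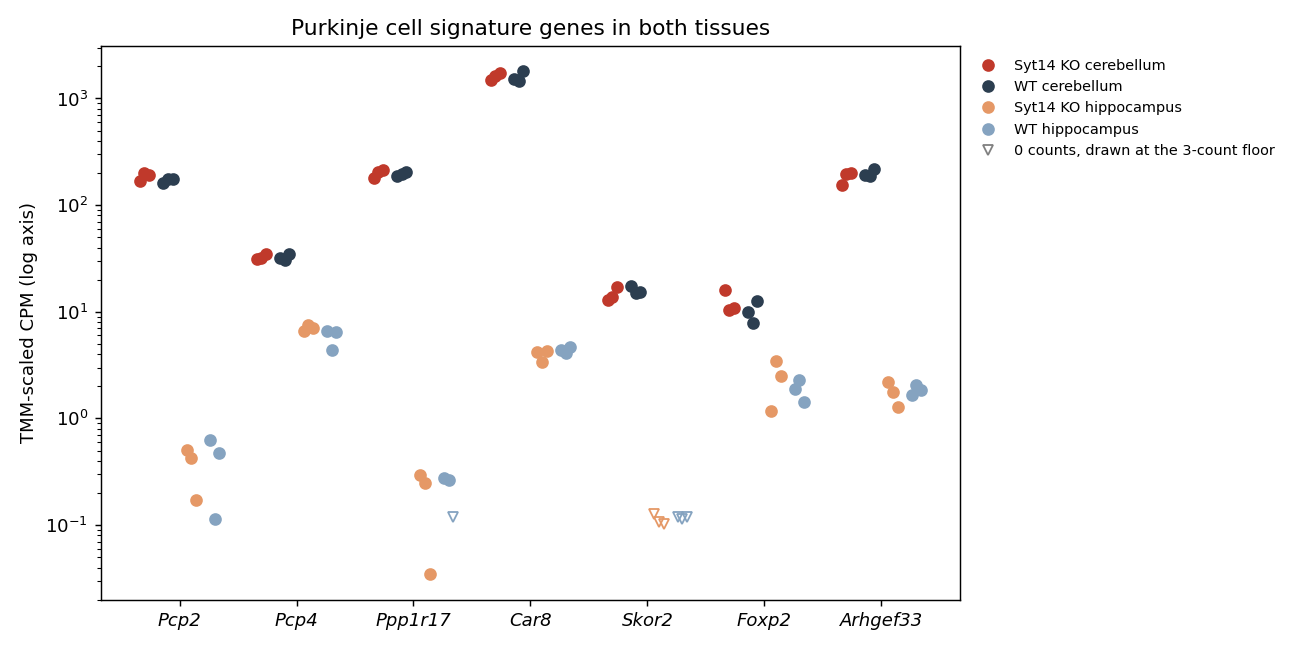
TMM-scaled CPM on a log axis for the 7 genes in each of the 12 libraries, with KO and WT cerebellum and KO and WT hippocampus side by side, 3 points per group. Open triangles are libraries with 0 counts, drawn at the level of 3 counts. Cerebellum points lie above hippocampus points for every gene, and the gap is narrowest for Pcp4 and Foxp2.

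Skor2 (ENSMUSG00000091519, chr18:76856405-76900342 on the plus strand) had 0 counts in all 6 hippocampus libraries. In cerebellum it stood at 12.8, 13.9 and 17.0 CPM in KO and at 17.6, 14.9 and 15.2 CPM in WT. Set against the floor of 3 counts per hippocampus library, it was at least 116-fold higher in KO cerebellum and at least 135-fold higher in WT cerebellum. No Skor2 transcript was thus detectable in hippocampus at this depth.

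Ppp1r17 was read in hippocampus by 7, 7 and 1 counts in KO and by 7, 7 and 0 counts in WT. It was 1051-fold higher in cerebellum of KO animals and 1053-fold higher in that of WT animals, in WT with a 95% interval on the log2 scale of 9.68 to 10.4, and limma-voom gave a log2 value of 10.7 in WT against 10.04 by edgeR. Pcp2 was read in hippocampus by 12, 12 and 5 counts in KO and by 16, 3 and 12 counts in WT, and it was 518-fold higher in cerebellum of KO animals and 417-fold higher in that of WT animals. These hippocampal levels rest on at most 16 counts per library.

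Car8 stood at 4.19, 3.39 and 4.30 CPM in KO hippocampus and at 4.36, 4.14 and 4.64 CPM in WT hippocampus, against at least 1456 CPM in every cerebellum library. The cerebellum level was 410-fold higher in KO animals and 362-fold higher in WT animals. Arhgef33 stood at 2.18, 1.77 and 1.27 CPM in KO hippocampus and at 1.65, 2.05 and 1.85 CPM in WT hippocampus. It was 107-fold higher in cerebellum in either genotype. Car8 and Arhgef33 were thus low and read in every hippocampus library.

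Pcp4 and Foxp2 differed least between the tissues. Pcp4 was 4.65-fold higher in cerebellum of KO animals (log2 2.22 ± 0.09, SE) and 5.55-fold higher in WT animals (log2 2.47 ± 0.13). Foxp2 was 5.20-fold higher in KO animals (log2 2.38 ± 0.31) and 5.38-fold higher in WT animals (log2 2.43 ± 0.22). Pcp4 is also known from the CA2 field of the hippocampus, and Foxp2 from thalamus, striatum and inferior olive.

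By edgeR's quasi-likelihood test, 7 of 7 members were called higher in cerebellum in KO animals and 7 of 7 in WT animals, at adjusted p from 7.1e-11 to 1.0e-04 in KO and from 6.3e-15 to 4.7e-07 in WT. The members were chosen as markers of a cerebellar cell, so this direction was given by the choice. Skor2 and Ppp1r17 passed the filter on low counts in these fits only through the cerebellum libraries. The calls, medians and ranges of this paragraph are therefore a description and no test of the signature. Over all genes tested, 32.5% were called higher in cerebellum in KO animals and 33.0% in WT animals, out of 64.1% and 66.1% called in either direction. The median log2 fold change of the members was 8.68 in KO animals and 8.50 in WT animals, or 6.86 and 7.07 with Skor2 at its bound, against 0.03 and 0.02 over all genes. Group ranges did not overlap in 7 of 7 members in either genotype, as in 70.3% of all genes tested in KO animals and 70.7% in WT animals. The cerebellum libraries carry the mark L4 and the hippocampus libraries L1 in the column names. The labels do not explain this mark, and tissue cannot be told apart from what it stands for.

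The comparison of genotypes in cerebellum asked whether the Purkinje cell signature differs between the animals labelled KO and WT. No member passed the test. The fitted KO levels lay between 91.9% of WT for Skor2 and 122% of WT for Foxp2, and for Pcp4, Ppp1r17 and Car8 they were within 2% of WT. In a bulk sample fewer Purkinje cells and less RNA per cell cannot be told apart.

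**Figure D2:**
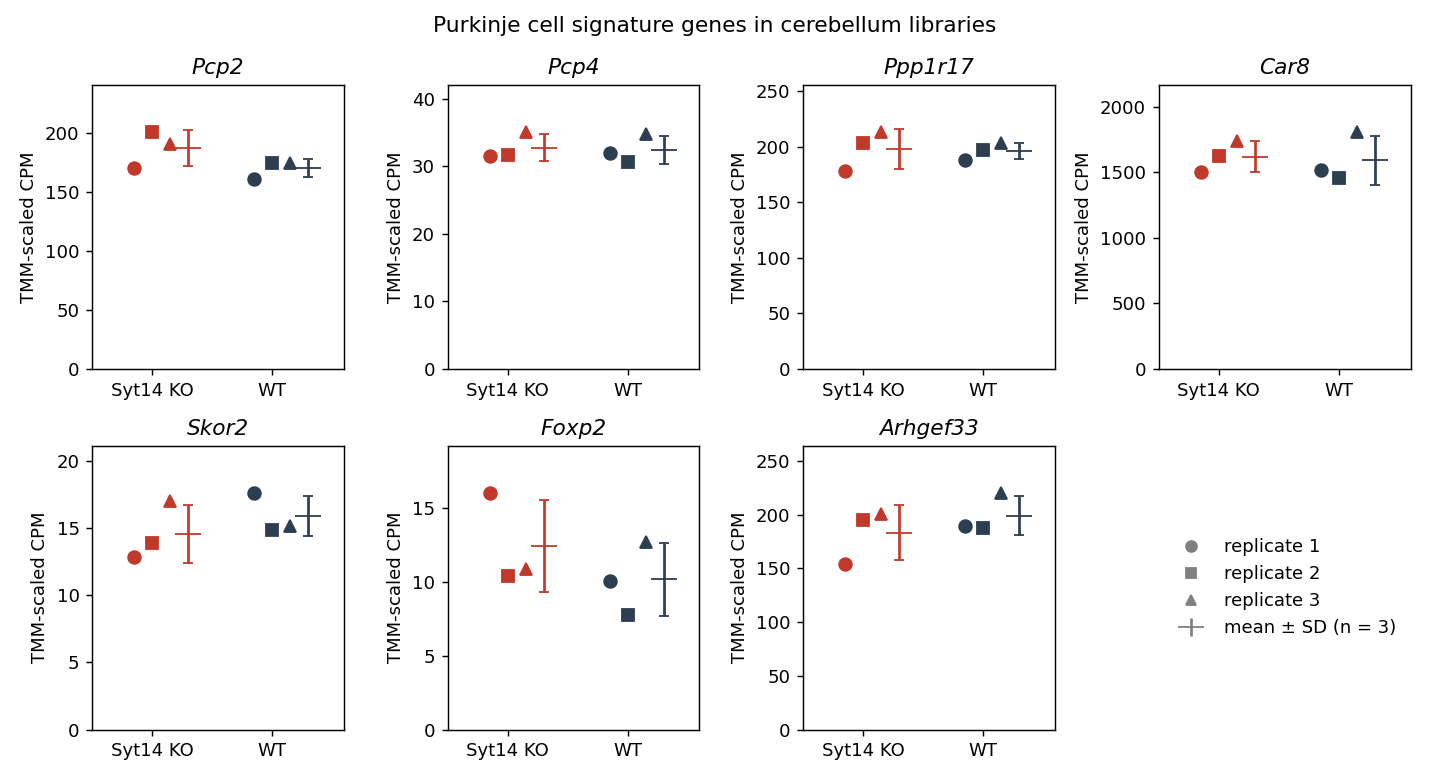
TMM-scaled CPM of each signature gene in the 6 cerebellum libraries, KO left of WT in each panel, with axes from 0. Symbols give the replicate number of the labels, and bars the mean ± SD over 3 libraries. KO and WT points overlap in every panel.

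Among the signalling proteins, Pcp2 stood at 170, 200.2 and 190 CPM in KO cerebellum, against 161, 174.1 and 174.0 CPM in WT cerebellum. KO replicate 1 lay inside the WT range and the other two KO libraries above it. The KO level was 110% of WT with a 95% interval of 99.8 to 121% (log2 0.14 ± 0.06, SE, unadjusted edgeR p of 0.0539, adjusted p = 0.736). Between libraries of the same replicate number the KO level was higher in 3 of 3 pairs, at 1.06, 1.150 and 1.09 times WT. These pairs join different animals, and KO replicate 1 lay below WT replicates 2 and 3, so the count depends on the numbering. With that number as a block the unadjusted edgeR p was 0.00747 and the adjusted p 0.284, which does not pass. Under the block 1668 of all 17733 genes had an unadjusted edgeR p under 0.05, against 1200 without it.

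Pcp4 stood at 31.6, 31.6 and 35.05 CPM in KO cerebellum, against 32.0, 30.6 and 34.7 CPM in WT cerebellum. In each genotype replicate 3 was the highest, and the ranges nearly coincided. The KO level was 101% of WT, with an interval of 91.2 to 112%. Ppp1r17 stood at 178, 203.3 and 213 CPM in KO, against 188.2, 197 and 203.2 CPM in WT, which gave 101% with an interval of 91.6 to 111%.

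Car8, the most abundant member, stood at 1500, 1621 and 1739 CPM in KO cerebellum, against 1515, 1456 and 1806 CPM in WT cerebellum. The WT range held the whole KO range. The KO level was 102% of WT with an interval of 89.2 to 116% (log2 0.02 ± 0.09, edgeR adjusted p = 0.973). Arhgef33 stood at 154, 195.1 and 200.3 CPM in KO, against 189.7, 187.6 and 220.1 CPM in WT. KO replicate 1 was the lowest library and WT replicate 3 the highest. The KO level was 92.01% of WT, with an interval of 79.6 to 106% and an adjusted edgeR p of 0.852.

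Of the transcription regulators, Skor2 had in KO cerebellum its lowest value in replicate 1 and its highest in replicate 3, 12.8 and 17.0 CPM, and its WT values, 14.9 to 17.6 CPM, overlapped that range. The KO level was 91.9% of WT with an interval of 77.1 to 109% (edgeR adjusted p = 0.880). Foxp2 stood at 16.01, 10.4 and 10.9 CPM in KO cerebellum, against 10.05, 7.78 and 12.7 CPM in WT cerebellum. It was the most variable member, with a coefficient of variation of 24.7% over the 6 libraries, where that of the others was 5.63 to 11.9%. The KO level was 122% of WT with an interval of 90.5 to 165% (log2 0.29 ± 0.20, edgeR adjusted p = 0.823), which covers a gain of over 1.5 times as well as a loss.

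The highest Foxp2 value, in KO replicate 1, fell in the library where Tcf7l2, a transcription factor of thalamus and midbrain, was also highest. Tcf7l2 stood at 39.1 CPM there in plain CPM, against 5.46 to 6.72 CPM in the other cerebellum libraries. With the Tcf7l2 level as a covariate, which was added once these values were known, the log2 fold change of Foxp2 was 0.09. Without KO replicate 1 it was 0.07. As Tcf7l2 stood apart in that library alone, the covariate nearly marks it, and these fits are largely the same test. The 8 thalamus markers as a list summed to 608 to 664 CPM in KO cerebellum, against 584 to 684 CPM in WT cerebellum. Of these, 4 of 8 were higher on average in KO and none was at 0. The list includes Rora, also among the other Purkinje genes, at 336 to 447 TMM-scaled CPM in the cerebellum libraries. In cerebellum the sum therefore mostly follows Rora and does not measure thalamic tissue, whose part was not tested.

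By edgeR 0 of 7 members were called in cerebellum, where 0.0113% of all 17733 genes tested were called, and 0 of 7 had an unadjusted p under 0.05, as 6.77% of all genes had. The 2 genes called were Cck and Fosl2, neither of them a member, named here from their values. DESeq2 and limma-voom also called 0 members. Group ranges did not overlap in 0 of 7 members and in 11.9% of all genes. With the replicate number as a block 36 genes were called, and again 0 members. The median log2 fold change of the members was 0.02 against 0.002 over all genes, with 5 above and 2 below 0. With the choroid plexus score as a covariate, or without KO replicate 3, 2 were above 0 and 5 below. Without WT replicate 1, and likewise without WT replicate 2, the split was 3 above and 4 below.

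**Figure D3:**
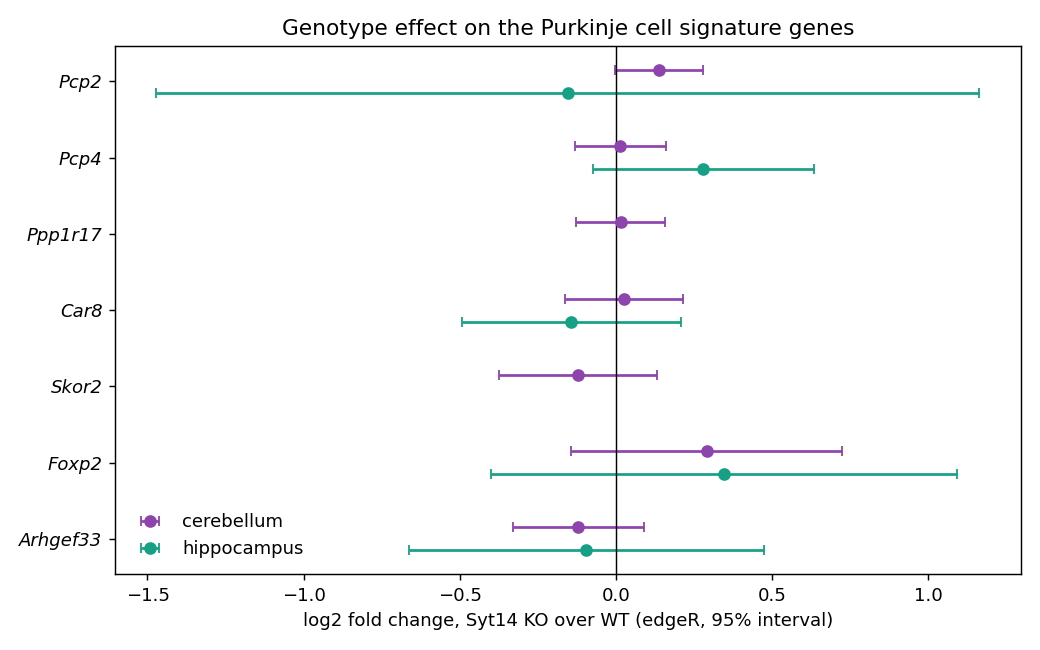
Log2 fold change of KO over WT with its 95% interval from the edgeR fit, for each signature gene in cerebellum and hippocampus, 3 libraries per group. Ppp1r17 and Skor2 have no hippocampus value because they did not pass the filter on low counts there. Every interval includes 0, and the cerebellum intervals are the narrower ones.

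Across the 6 libraries, KO replicate 1 was lowest in 3 of 7 members and among the 2 lowest in 6, and was highest in Foxp2. WT replicate 2 was lowest in 3 members. KO replicate 3 and WT replicate 3 were each highest in 2 members and among the 2 lowest in 0. The mean standardised log2 level of the members was 0.82 in KO replicate 3 and -0.72 and 0.13 in KO replicates 1 and 2, against 0.66 in WT replicate 3 and -0.29 and -0.60 in WT replicates 1 and 2, in units of SD over the 6 libraries. KO replicate 3 was also the library with the least choroid plexus. The part of these other tissues in the members' levels was not tested beyond the covariate fits.

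Other genes followed the same library pattern. The 5 with the highest Pearson r to that mean over the 6 libraries, among 15049 genes, were Fam83d (0.998), Tacc1 (0.993), Csf1 (0.991), Adgrb1 (0.988) and Nhlrc3 (0.986). Of the 28 other Purkinje genes, Cacna1g, a T-type calcium channel, had an r of 0.979 and Mtss1, an actin regulator, 0.975, while Aldoc, the zebrin marker of Purkinje cell stripes that astrocytes also express, had -0.16. Each point is a library with its own dissection and depth, so these values are a description only. Of the members, Car8 followed the mean of the other members most closely (r = 0.930), and Foxp2 least (-0.17).

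The ratio of a pair of members within a library does not depend on the library's scaling. In cerebellum the ratio of Pcp2 to Arhgef33, of levels in TMM-scaled CPM, was 1.10, 1.03 and 0.949 in KO, against 0.849, 0.928 and 0.791 in WT. The ratio of Pcp2 to Ppp1r17 was 0.954, 0.985 and 0.892 in KO, against 0.855, 0.885 and 0.857 in WT, and that of Car8 to Arhgef33 was 9.73, 8.31 and 8.68 in KO, against 7.99, 7.76 and 8.21 in WT. These were the 3 of 21 member pairs whose ranges did not overlap, picked out after all 21 were seen. Among the 378 pairs of the other Purkinje genes 27.2% did not overlap, so the share among the members is no larger than among those genes.

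The 28 other Purkinje genes, among them calcium channels, calcium store genes and transcription factors, gave no call either in the genotype comparisons. Without the filter on low counts 1 of the 28 was called higher in KO cerebellum and 1 in KO hippocampus, and 1 was called in the difference between tissues. In the tissue comparison of KO animals 25 were called higher in cerebellum and 2 lower, and in WT animals 25 and 2, with Lhx1 (log2 7.40) and Lhx5 (6.04), both transcription factors of Purkinje cell specification, among those higher in cerebellum of WT animals. Between genotypes, 0 rose and 0 fell in cerebellum, and 7 lay above and 21 below 0, with a median log2 fold change of -0.04. That split changed with single libraries. Without KO replicate 1 18 of 28 were above 0, without KO replicate 2 12, without WT replicate 3 20, and with the brainstem score entered as a covariate also 20. It stayed near the reported split in other fits. Without KO replicate 3 6 were above 0, without WT replicate 2 also 6, without WT replicate 1 7, and with the choroid plexus score 5. In hippocampus 22 of the 27 tested lay above 0 and 5 below, and under the alternatives there 17 to 23 lay above. KO replicate 1 had the lowest summed level of this list, 12759 CPM, and WT replicate 3 the highest, 15433 CPM.

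The 5 described here, Ebf1, Kitl, Aldoc, Slc1a6 and Casq2, had the smallest unadjusted p, and none of them passed. Ebf1, a transcription factor of Purkinje cell development, stood at 66.4, 65.7 and 70.8 CPM in KO cerebellum, against 77.4, 71.3 and 80.5 CPM in WT cerebellum, without overlap (log2 -0.17 ± 0.06, unadjusted edgeR p of 0.00952, adjusted p = 0.644). Kitl, the ligand that Purkinje cells present to Kit-bearing interneurons, stood at 194.2, 211 and 227 CPM in KO, against 172, 165 and 207.2 CPM in WT, with overlap (log2 0.22 ± 0.08, edgeR adjusted p = 0.701). Aldoc stood at 1476 to 1531 CPM in KO, against 1579 to 1674 CPM in WT, also without overlap (log2 -0.11, edgeR adjusted p = 0.743). Slc1a6, the glutamate transporter of Purkinje cells, had a log2 fold change of 0.10 (edgeR adjusted p = 0.747), and Casq2, a calcium store protein, 0.14 (0.767). Ranges did not overlap in 2 of the 28 genes, against the 11.9% of all genes.

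**Figure D4:**
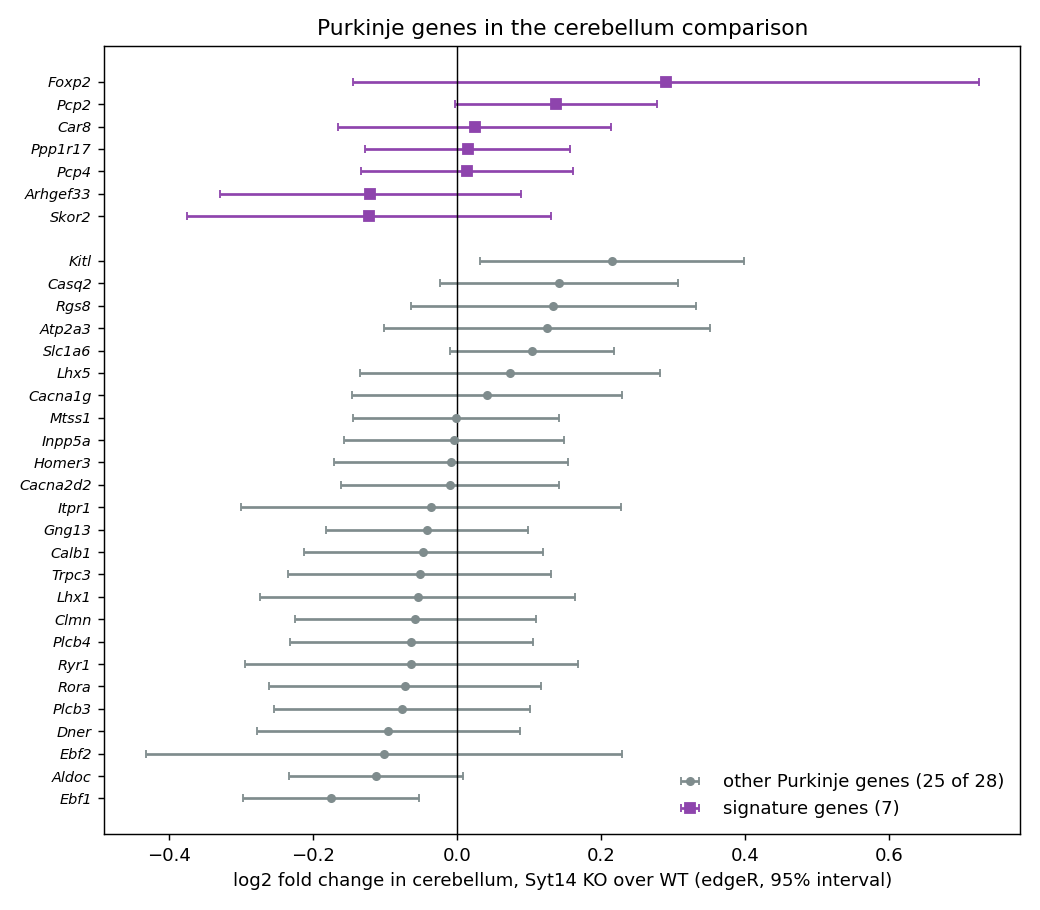
Log2 fold change of KO over WT in cerebellum with its 95% interval from the edgeR fit, for the 7 signature genes (squares, above) and 25 of the 28 other Purkinje genes (circles, below), sorted by value, 3 libraries per group. The values lie between -0.17 and 0.29. The intervals of Ebf1 and Kitl leave out 0 before adjustment, and no gene passed after it.

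Hippocampus served as the tissue without Purkinje cells. Of the 5 members that passed the filter on low counts there, 0 were called by edgeR, where 0.00% of all 17693 genes were called and 767 had an unadjusted p under 0.05. DESeq2 called 0 members as well. Skor2 and Ppp1r17 were not tested. Group ranges did not overlap in 0 of the 5, against 9.81% of all genes.

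Pcp4 stood at 6.54, 7.57 and 7.06 CPM in KO hippocampus, against 6.56, 4.41 and 6.53 CPM in WT hippocampus. WT replicate 2 was the lowest library, and without it the log2 fold change of 0.28 ± 0.16 became 0.11. That library was also the richest in meninges. Its 9 markers summed to 71.8 to 84.7 CPM in KO hippocampus, against 81.9 to 153 CPM in WT hippocampus. Of these, 8 of 9 were lower on average in KO and none was at 0. With the meninges score as a covariate the log2 fold change of Pcp4 was 0.08. The part of meninges in the Pcp4 level was not tested. The 6 CA2 markers summed to 204 to 227 CPM in KO hippocampus, against 212 to 215 CPM in WT hippocampus, with 2 of 6 higher on average in KO and none at 0.

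Foxp2 in hippocampus stood at 1.17, 3.43 and 2.48 CPM in KO, against 1.89, 2.32 and 1.42 CPM in WT. Its highest library, KO replicate 2, was again the one highest in Tcf7l2, at 18.6 CPM against 4.04 to 6.17 CPM in the other hippocampus libraries in plain CPM. The 8 thalamus markers summed to 263 CPM in that library and to 114 to 168 CPM in the other KO and WT libraries, with 6 of 8 higher on average in KO and none at 0. The log2 fold change of Foxp2 was 0.35 ± 0.34 over all libraries and -0.02 without KO replicate 2. It was 0.00 with the thalamus score as a covariate and -0.09 with the Tcf7l2 level as a covariate. Tcf7l2 stood apart in KO replicate 2, so the fit with its level largely repeats the fit without that library. The cause was not tested.

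Car8 in hippocampus had a log2 fold change of -0.14 ± 0.16, Arhgef33 of -0.10 ± 0.26 and Pcp2 of -0.15 ± 0.60. The wide error of Pcp2 goes with its 3 to 16 counts per library, and with the meninges score as a covariate its value was -1.06.

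The difference of the genotype effect, cerebellum minus hippocampus, was tested over all 12 libraries. Of the members 0 were called, where 0.0105% of all 19027 genes were called, again Cck and Fosl2. The difference was -0.26 ± 0.17 on the log2 scale for Pcp4 (edgeR adjusted p = 0.942), 0.17 ± 0.16 for Car8 (0.958), 0.30 ± 0.50 for Pcp2 (0.983), -0.06 ± 0.42 for Foxp2 and -0.01 ± 0.28 for Arhgef33. For Skor2, with 0 counts in hippocampus, no difference can be given.

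The counts of Pcp2 and Pcp4 may miss reads. In GENCODE M21, 941 of the 1828 exon bases of Pcp2 also lie in exons of Pet100 on the opposite strand, and 243 of the 1026 exon bases of Pcp4 in exons of Igsf5 on the same strand. Of Arhgef33, 324 of 4680 exon bases lie in exons of Gm10190 on the opposite strand. The libraries were strand-specific, and the sources used here do not give the strand setting of the counting. Igsf5 and Gm10190 had 0 counts in every library. Pet100 had 47 to 109 counts in the cerebellum libraries and 83 to 125 in the hippocampus libraries, where Pcp2 had 4067 to 6469 and 3 to 16. Reads in shared exons may have been dropped or, for Pcp2, given to the partner, which was not tested. The level of Pcp2 and Pcp4 relative to the other members is therefore uncertain, while the comparison between libraries rests on the same counting.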

How the data were processed

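RNA was extracted with Trizol and poly(A) libraries were made strand-specific by dUTP, per the labels' protocols. Tools named are featureCounts 2.0.3, STAR 2.7.10 and Trimmomatic 0.39 with mm10 and GRCm38 as builds, per the submitters' processing notes, and the authors deposited raw counts per gene, 1 table per tissue. Groups follow the labelled genotype and tissue, and the column names matched the labels' sample descriptions. Of 54446 identifiers, 54409 had an entry in GENCODE M21 (GRCm38).

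Fits used edgeR 4.0.16 in R 4.3.3 on the deposited counts, with filterByExpr (minimum count 10), TMM factors and the two-sided quasi-likelihood test, each tissue alone for the genotype, each genotype alone for the tissue, and all 12 libraries for the difference. Calls are at a Benjamini-Hochberg adjusted p under 0.05 over all genes tested. SE is the size of the log2 fold change over the square root of F. DESeq2 1.42.0 and limma 3.58.1 (voom) were alternatives. Printed levels use TMM factors over all 12 libraries. Python 3.11.15 and matplotlib 3.10.9 made tables and figures.

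The members and gene lists were chosen with earlier results of these data known. The text names all members, those of the 6 other Purkinje genes with the smallest p in cerebellum that are reported here, and the 5 genes most like the members across cerebellum libraries. Any other gene, such as Tcf7l2, was picked with its values in view. Results for 3 other Purkinje genes are not reported here, and the counts over that list include them.

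No 2 libraries of a group were identical (chi-square per gene 4.14 to 12.8). Same-numbered KO and WT cerebellum libraries, although from different animals, deviated together (r = 0.118 to 0.290 across genes). For differently numbered ones r was -0.280 to 0.0805. Levels were centred within each group first, which ties these values to each other, so they do not establish a pairing. Same-numbered hippocampus libraries did not all deviate together (r = -0.0095 to 0.111). The reported genotype fits have no block, and the block is an alternative. For the tissue comparison the pairing is the animal, from the animal numbers in the labels. The reported tissue fits and the fit of the difference have no term for the animal, and the animal block is an alternative there too. Intervals and floors of counts cover counting error only, and those of fits include the spread between animals.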

Additional observations from a re-analysis of the deposited data

Results flagged for a closer look

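The genotype effect differed between the tissues, by the edgeR test of the difference over all 12 libraries, for Fosl2 (log2 1.05, adjusted p = 3.71e-04) and Cck (0.89, adjusted p = 3.71e-04), neither of them a Purkinje signature gene. No signature gene met this test.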

How the results depend on the processing

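All 7 members were called higher in cerebellum than in hippocampus in both genotypes under each of the 12 alternatives, and 0 were called in a genotype comparison or in the difference under any of the 16 to 18. With the replicate number as a block the log2 fold changes were 0.14 for Pcp2 and -0.12 for Arhgef33 in cerebellum, and the block changed no call of a member. The choroid plexus score turned the cerebellum values of Pcp4 (-0.058), Ppp1r17 (-0.039) and Car8 (-0.052), the Tcf7l2 level that of Foxp2 in hippocampus (-0.088), and limma-voom the differences between tissues of Foxp2 (0.025) and Arhgef33 (0.015). The cause was not tested.

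With each library left out in turn, cerebellum values ran from -0.035 to 0.066 for Pcp4, -0.037 to 0.085 for Ppp1r17, -0.032 to 0.12 for Car8, 0.07 to 0.48 for Foxp2, 0.08 to 0.20 for Pcp2, -0.24 to -0.04 for Skor2 and -0.19 to -0.01 for Arhgef33. Hippocampus values ran from -0.60 to 0.31 for Pcp2, -0.023 to 0.65 for Foxp2 and -0.28 to 0.089 for Arhgef33. Differences ran from -0.16 to 0.76 for Pcp2, -0.54 to 0.56 for Ppp1r17, -0.36 to 0.30 for Foxp2 and -0.20 to 0.17 for Arhgef33.

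Over all genes, the 2 calls in cerebellum became 417 without a filter on low counts, 38 with DESeq2, 36 with the replicate block, 4 in the fit of 12 libraries, 62 with the brainstem score, 35 with the choroid plexus score and 2 to 33 with a library left out. The 0 in hippocampus became 77, 4 and 2 with no filter, DESeq2 and the replicate block and 0 to 2 with a library left out, and the 2 of the difference 275, 11 and 2 to 44 with no filter, DESeq2 and a library left out. In hippocampus the depth leaves Skor2 at 0 counts, Ppp1r17 at 0 to 7 and Pcp2 at 3 to 16 per library.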
